A study of Mus musculus with 12 samples.

Results

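Interferon-stimulated genes are the genes that cells switch on when an interferon binds its receptor. A list of 39 such genes was followed in mouse liver, and its members were found by their symbol in a table of 41128 genes. Of the 39, 38 were found, and Gbp6 was not analysed here. All 38 had a mean value of at least 10 over the libraries, so all 38 were tested. The lowest mean was 13.7, for Oas3. For the comparison of interest, 30 members were taken as type I effectors, the genes best known as targets of the interferons alpha and beta, and 7 as interferon gamma GTPases. Irf1, a transcription factor that both kinds of interferon induce, was kept in neither class.

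The livers came from C57BL/6 mice born into a germ-free colony. Germ-free (GF) mice stayed in sterile isolators for life. Conventionalized (CV) mice were littermates that left the isolators at weaning, on day 21, and lived for 3 weeks in cages with used bedding from the animal house. All mice were killed at 6 weeks of age, and each condition had 3 mice labelled male and 3 labelled female, with 1 library for each mouse. The bedding was not characterised in the labels, so the microbes that the CV mice received are unknown. The question put to the list was whether type I effectors and interferon gamma GTPases differed between GF and CV livers, over both sexes and within each.

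Values are normalised read counts: reads per gene divided by 1 size factor for each library, as deposited. Changes are CV minus GF of log2(value + 1), so that genes with few reads appear to change less than they did. They are given with the standard error (SE), and a change was called when its p-value, adjusted over the 11782 genes tested, was under 0.05.

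Interferons alpha and beta bind a receptor made of IFNAR1 and IFNAR2, which works through the kinases JAK1 and TYK2. The transcription factor STAT2 then joins IRF9 in a complex called ISGF3, which binds an interferon-stimulated response element (ISRE) in promoters. Interferon gamma uses the receptor IFNGR1 and IFNGR2, and its response acts through another element, the gamma-activated site (GAS). In the liver, hepatocytes and Kupffer cells can both respond to interferons.

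The promoters were searched for both elements. A promoter of 300 bases, from 250 bases before to 50 after the annotated start (RefSeq, build GRCm38.p6), was at hand for 29 of the 38 members. None was at hand for Oas2, Mx1, Mx2, Usp18, Ifi27, Dhx58, Parp9, Parp14 and Zbp1. The ISRE core was searched as GAAANNGAAA on either strand and the GAS as TTCNNNGAA, which reads the same on both strands. Neighbouring matches can share bases. An ISRE stood in 17 of the 29 members (58.6%), against 3.99% of all 27025 genes with a promoter. A GAS stood in 8 of the 29 (27.6%), against 9.55% of all genes. Among the type I effectors an ISRE stood in 11 of 21 promoters and a GAS in 4. Among the GTPases an ISRE stood in 6 of 7 and a GAS in 3, so both elements stood in both classes. The promoters of 2 type I effectors and 2 GTPases with strong changes, and that of Irf1, are shown as the 250 bases before the start, 5′ to 3′ on the strand of the gene. Capitals mark the matches, and runs of capitals over 10 letters hold matches that overlap or touch.
Stat2, chr10:128270248-128270497, plus strand: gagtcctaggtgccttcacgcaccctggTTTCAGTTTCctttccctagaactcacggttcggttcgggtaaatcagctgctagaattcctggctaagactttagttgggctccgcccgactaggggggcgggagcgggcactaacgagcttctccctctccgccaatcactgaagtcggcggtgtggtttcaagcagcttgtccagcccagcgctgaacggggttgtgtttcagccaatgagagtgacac
Bst2, chr8:71537473-71537722, minus strand: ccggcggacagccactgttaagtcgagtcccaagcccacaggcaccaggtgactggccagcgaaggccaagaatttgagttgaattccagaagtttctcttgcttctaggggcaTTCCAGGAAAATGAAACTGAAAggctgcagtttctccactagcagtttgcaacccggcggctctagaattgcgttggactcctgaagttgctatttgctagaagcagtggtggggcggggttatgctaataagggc
Igtp, chr11:58199306-58199555, plus strand: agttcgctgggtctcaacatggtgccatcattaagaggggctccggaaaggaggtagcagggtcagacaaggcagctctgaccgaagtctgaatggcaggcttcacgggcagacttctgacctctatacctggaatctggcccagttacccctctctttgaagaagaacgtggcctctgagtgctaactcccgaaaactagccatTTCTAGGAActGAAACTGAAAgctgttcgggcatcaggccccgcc
Irgm1, chr11:48871421-48871670, minus strand: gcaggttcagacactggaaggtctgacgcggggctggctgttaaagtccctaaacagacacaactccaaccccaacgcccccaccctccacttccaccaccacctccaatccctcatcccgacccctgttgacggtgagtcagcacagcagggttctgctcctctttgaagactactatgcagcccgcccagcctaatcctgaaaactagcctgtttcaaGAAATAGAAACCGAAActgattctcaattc
Irf1, chr11:53769764-53770013, plus strand: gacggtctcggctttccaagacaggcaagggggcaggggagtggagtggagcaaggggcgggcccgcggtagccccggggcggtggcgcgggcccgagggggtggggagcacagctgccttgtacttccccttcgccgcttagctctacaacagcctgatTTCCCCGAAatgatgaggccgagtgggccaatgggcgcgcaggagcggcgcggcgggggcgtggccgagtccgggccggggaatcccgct

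In Igtp the GAS began at position −45 and the ISRE at −34 from the start, next to each other. In Bst2 the GAS at −136 ran into a pair of overlapping ISRE matches at −130 and −124. Irgm1 held a pair of overlapping ISRE matches, at −30 and −24, and no GAS. The ISRE of Stat2 lay at −222 and was read on the opposite strand, whereas Irf1 held a GAS at −90 and no ISRE. An ISRE stood in the promoters of members that were higher in CV livers (7 of 9), of members that did not pass the test (9 of 18) and of 1 of the 2 lower members with a promoter. The other lower members, Oas2, Mx1, Mx2 and Parp14, had no promoter at hand. Whether the letters sort the members by direction therefore cannot be judged.

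Some facts of the libraries touch every result. Reads per library ranged from 5993619 to 10975691 in GF and from 8890529 to 15290835 in CV. A set of 7 abundant loci, among them both mitochondrial ribosomal RNA genes, took 41.8 to 69.4% of the reads in GF and 5.39 to 21.9% in CV, without overlap. Outside them, 1834565 to 5303292 reads were left in GF and 6943462 to 14411498 in CV, so low values are less precise in GF. The choice of scaling therefore matters: the median change of all genes was 0.07 as deposited, 0.62 when the libraries were scaled to all reads and −0.38 when they were scaled to the reads outside the 7 loci. In 1 library, labelled CV male 3, Xist stood at 2382 and no read fell on 4 Y-linked genes. That goes against its label, so results in males are also given without it. All 8 hepatocyte markers were detected, and albumin belongs to that list. Bulk liver cannot tell fewer cells of a type from less RNA in each cell.

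Over both sexes, 12 of the 38 members were higher in CV livers and 6 were lower. Among all genes 32.3% were higher and 28.7% lower, so the share that rose was close to that of all genes and the share that fell was smaller. The members that rose were Ifit1, Ifit3, Ifit3b, Isg15, Usp18, Irf7, Oasl1, Bst2, Ifi27, Zbp1, Igtp and Irgm1. The members that fell were Stat2, Oas2, Mx1, Mx2, Parp14 and Rnf213. Their changes ran from −2.98 for Oas2 to 1.93 for Ifit3b, and the median over the 38 members was 0.24. Members of the OAS family moved in opposite directions.

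**Figure D1:**
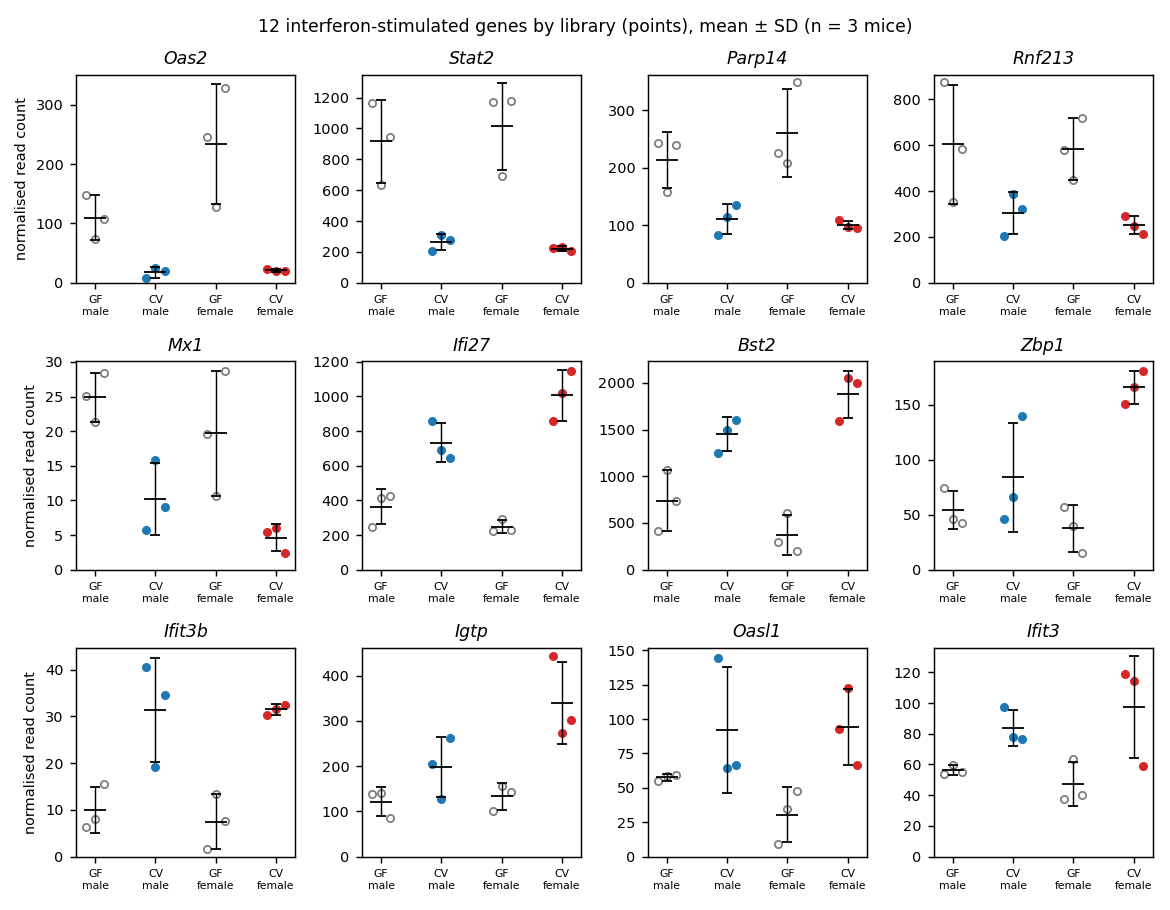
Normalised read counts (vertical axes, each from 0) of the 12 members with the smallest adjusted p-values, in GF and CV livers of each labelled sex. Points are libraries and bars are the mean ± SD of 3 mice. Stat2 and Oas2 lay lower in every CV library than in any GF library, and Bst2 and Ifi27 lay higher.

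The transcription factors of the response did not move together. Stat2 (chr10:128270559-128292849), a subunit of ISGF3, had values of 1168, 635 and 944 in GF males and 208, 312 and 278 in CV males. In females it had 1173, 689 and 1179 in GF and 228, 234 and 204 in CV. Every CV library lay below every GF library, in both sexes. The change was −1.95 (SE 0.20, adjusted p = 1.41e-06) over both sexes, −1.76 (SE 0.28) in males and −2.14 (SE 0.28) in females. Irf9, which gives ISGF3 its contact with DNA, differed by −0.15 (SE 0.16, adjusted p = 0.453). A difference that did not pass the test is given as a value only.

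A ratio of reads within 1 library does not depend on scaling. The ratio of Stat2 to Irf9 reads ran from 2.88 to 4.56 in the 6 GF libraries, with a median of 3.56, and from 0.756 to 1.65 in the 6 CV libraries, with a median of 0.883. The ratio was chosen after the values had been seen and was not tested.

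**Figure D2:**
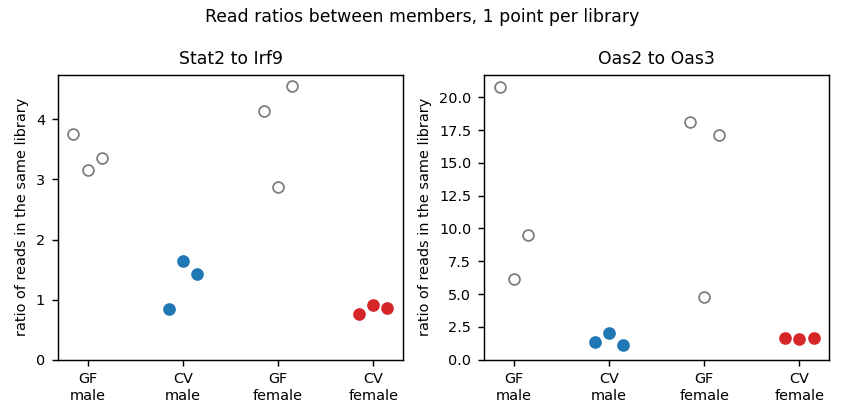
Ratios of reads between members within each library (vertical axes, from 0), with 1 point for each of 12 libraries in GF and CV livers of each labelled sex. The Stat2 to Irf9 ratio was 2.88 or more in GF and 1.65 or less in CV, and the Oas2 to Oas3 ratio 4.80 or more in GF and 2.00 or less in CV. Both ratios were chosen after the values had been seen.

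Irf7, which amplifies the interferon response, had means of 336 ± 44.3 (SD, n = 3) in GF males and 394 ± 27.2 in CV males. In females the means were 349 ± 4.74 in GF and 523 ± 72.1 in CV. The change was 0.40 (SE 0.15, adjusted p = 0.0274) over both sexes, and it was −0.06 when the libraries were scaled to the reads outside the 7 loci. The call also ended when any 1 of the libraries GF male 2, GF male 3, CV male 2, CV female 2 or CV female 3 was left out, with adjusted p-values of 0.0565, 0.0559, 0.0564, 0.0814 and 0.0627. Irf1 (chr11:53770014-53778374), whose promoter holds the GAS shown above, had 256, 137 and 198 in GF males and 235, 282 and 305 in CV males. GF females had 246, 181 and 424, and CV females had 270.4, 205 and 278. The ranges overlapped in both sexes, and the difference was 0.21 (SE 0.22, adjusted p = 0.419).

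Of the 5 sensors and their cofactors, Zbp1 rose and the other 4 did not pass the test in limma over both sexes. Zbp1 (chr2:173206612-173218923) binds left-handed nucleic acids and can start necroptosis. It had 74.3, 46.6 and 42.5 in GF males and 46.3, 66.0 and 139.9 in CV males, and these ranges overlapped. Its values in females were 57.4, 39.9 and 15.3 in GF and 151, 167 and 181 in CV, with every CV library above every GF library. The highest male value was that of the library labelled CV male 3. The change was 1.40 (SE 0.31, adjusted p = 0.000927) over both sexes. Ddx58 and Ifih1, which encode the RNA sensors RIG-I and MDA5, differed by −0.22 (SE 0.16) and 0.10 (SE 0.16). Trim25, a ubiquitin ligase that acts on RIG-I, differed by −0.36 (SE 0.16, adjusted p = 0.0603), and edgeR (−0.40, adjusted p = 0.0466) and DESeq2 (−0.36, adjusted p = 0.0300) both called it lower. Scaled to the reads outside the 7 loci, Trim25 (−0.82) and Ddx58 (−0.68) were called lower. Ifih1 was called higher when the libraries were scaled to all reads (0.65). Dhx58, which encodes LGP2, was called in females, with a change of 0.80 (SE 0.29, adjusted p = 0.0279), and not over both sexes.

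The OAS family held both the largest fall and a rise. Its enzymes detect double-stranded RNA and make the short oligoadenylates that activate RNase L. Oas2 (chr5:120730333-120749853) had 149, 73.2 and 108 in GF males against 7.81, 25.4 and 19.99 in CV males. Among females the GF libraries gave 246, 128 and 328 and the CV libraries 24.0, 20.2 and 19.3. No CV library reached the lowest GF library. The change was −2.98 (SE 0.29, adjusted p = 1.2e-06), with −2.65 in males and −3.31 in females. Oas3 and Oas1a, its neighbours on chromosome 5, differed by −0.20 (SE 0.34) and 0.16 (SE 0.25) and were not called. The ratio of Oas2 to Oas3 reads was 4.80 to 20.75 in GF libraries and 1.10 to 2.00 in CV libraries. Oas3 had only 8 to 10 reads in each GF library, so the ratio is imprecise there. It too was chosen after the values had been seen and was not tested. Other ratios looked at overlapped between the conditions. Ifit3b to Ifit2 ran from 0.026 to 1.00 in GF and from 0.358 to 2.05 in CV. Mx2 to Bst2 ran from 0.022 to 0.539 in GF and from 0.0082 to 0.0319 in CV.

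Oasl1 (chr5:114923240-114937915) has lost the synthetase activity and restrains the translation of Irf7. It had 54.6, 58.6 and 59.5 in GF males and 145, 64.4 and 66.3 in CV males. In females it had 9.06, 34.6 and 47.9 in GF and 93.0, 122 and 66.8 in CV. Each CV library lay above all GF libraries, by little in 3 of the 6. The change was 1.19 (SE 0.33, adjusted p = 0.00524) over both sexes, and it was called in females (1.83, SE 0.47) and not in males (0.56, SE 0.47). Oasl2, the other OAS-like member, differed by −0.19 (SE 0.25).

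Of the IFIT family, whose proteins bind foreign RNA, 3 of 4 members rose. Ifit3b (chr19:34607970-34613401) had 6.27, 7.98 and 15.6 in GF males and 40.6, 19.1 and 34.5 in CV males. GF females had 1.51, 13.3 and 7.67, and CV females had 30.3, 31.6 and 32.5. All CV libraries lay above all GF libraries, at a low level. The change was 1.93 (SE 0.40, adjusted p = 0.000603). Ifit3 had 53.7, 59.9 and 55.3 in GF males and 97.3, 77.9 and 76.3 in CV males. In females Ifit3 had 37.7, 63.8 and 40.3 in GF and 119, 114 and 59.0 in CV, so 1 CV library lay inside the GF range. The change of Ifit3 was 0.78 (SE 0.21, adjusted p = 0.0048). Ifit3 and Ifit3b are near-identical copies, and how reads that match both were counted is not given in the sources used here, so the split between them is uncertain. Ifit1 changed by 0.63 (SE 0.21, adjusted p = 0.0158), and Ifit2 differed by 0.04 (SE 0.34).

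Both members of the ISG15 system rose. Isg15 (chr4:156199424-156200818), a ubiquitin-like protein that is attached to other proteins, had 90.4, 225 and 106 in GF males and 118, 158 and 278 in CV males, which overlapped. Its values in females were 60.4, 117 and 44.1 in GF and 136, 197 and 165 in CV, which did not. The change was 0.84 (SE 0.28, adjusted p = 0.0162). Usp18, which removes ISG15 and restrains signalling at IFNAR2, changed by 0.62 (SE 0.22, adjusted p = 0.0223). That call ended without GF male 2, GF female 1, CV male 1 or CV female 2, with adjusted p-values of 0.0615, 0.071, 0.0529 and 0.0655.

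The direct antiviral effectors split. Bst2 (chr8:71534255-71537456) encodes tetherin, which holds budding viruses at the cell surface. It had the highest level of the members per length, a mean value of 1228 for each kilobase of exon, followed by Ifi27 with 401 and Isg15 with 187. Bst2 had 412, 1066 and 738 in GF males and 1248, 1495 and 1604 in CV males. Among females the GF libraries gave 300.4, 609 and 196 and the CV libraries 1592, 2054 and 1994. Every CV library lay above every GF library. The change was 1.78 (SE 0.26, adjusted p = 3.14e-05) over both sexes, 1.07 (SE 0.37) in males and 2.50 (SE 0.37) in females. Rsad2, which encodes viperin, differed by −0.04 (SE 0.22).

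Both Mx genes, which encode dynamin-like GTPases, fell. In C57BL/6 mice, as in most inbred strains, both carry mutations that abolish the antiviral protein, so these values speak of the transcript. Mx1 (chr16:97447035-97462907) had 25.1, 21.3 and 28.3 in GF males and 5.72, 15.9 and 9.09 in CV males. In females it had 19.6, 10.6 and 28.8 in GF and 5.47, 6.05 and 2.41 in CV. The ranges did not overlap within a sex. Reads of Mx1 were few, with 13, 4 and 15 in GF females and 13, 9 and 4 in CV females. These counts overlapped, so the separation in females appears only after division by the size factors. The change was −1.57 (SE 0.36, adjusted p = 0.00144). Mx2 changed by −1.29 (SE 0.37, adjusted p = 0.00659), from 75.2 ± 57.8 to 30.4 ± 15.1 in males, where the ranges overlapped, and from 72.6 ± 32.8 to 23.5 ± 6.27 in females. Scaled to all reads, the change of Mx2 was −0.74 and was no longer called (adjusted p = 0.11).

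Of the 7 other induced proteins, Ifi27 rose, and Parp14 and Rnf213 fell. Ifi27 (chr12:103434211-103440239), a small membrane protein, had 249, 417 and 425 in GF males and 860.3, 689 and 647 in CV males. GF females had 225, 293 and 228, and CV females had 856, 1018 and 1149. All CV libraries lay above all GF libraries. The change was 1.53 (SE 0.18, adjusted p = 4.43e-06), and Ifi27 was called in each sex.

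Parp14 (chr16:35832874-35871544), an ADP-ribosyltransferase, had 243, 157 and 239.5 in GF males and 83.3, 114 and 135 in CV males. Its values in females were 226, 207 and 349 in GF and 109, 97.4 and 95.1 in CV. The conditions did not overlap, and the change was −1.13 (SE 0.19, adjusted p = 0.000108). Rnf213 (chr11:119393100-119487418), a giant ubiquitin ligase, had 875, 354 and 582 in GF males and 203, 386 and 322 in CV males, with 1 CV library inside the GF range. Among females the GF libraries gave 578, 449.5 and 719 and the CV libraries 292, 249.9 and 213, with no overlap. Its change was −1.07 (SE 0.23, adjusted p = 0.000729). Ifi44, Xaf1 and Parp9 differed by −0.02 to 0.25 and were not called, and Ifi35 was called in females (0.60, SE 0.22, adjusted p = 0.0278) and not over both sexes (0.32, SE 0.15).

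The interferon gamma GTPases act on the vacuoles of microbes inside cells. Of the 7, Igtp and Irgm1 rose over both sexes, none was called lower in limma, edgeR or DESeq2, and the median change was 0.32. The share that rose, 28.6%, was near the 32.3% of all genes. The 7 do not stand for their families: outside the 38 members, Gbp4 (−1.49, SE 0.30, adjusted p = 0.000435), Gbp8 (−1.65, SE 0.36, adjusted p = 0.000905) and Gbp9 (−0.79, SE 0.26, adjusted p = 0.0149) fell, and Iigp1 differed by −0.33 (SE 0.20). These 4 were named after their values had been seen. The annotated spans of Gbp4, Gbp8 and Gbp9 overlap on the minus strand of chromosome 5. How reads in shared stretches were counted is not given in the sources used here, so their falls may not be separate observations. Igtp (chr11:58199556-58207591) had 139, 141 and 85.0 in GF males and 204, 128 and 262 in CV males, where the ranges overlapped. In females it had 99.6, 157 and 142 in GF and 442, 274 and 303 in CV, where they did not. The change was 1.01 (SE 0.22, adjusted p = 0.000815). Igtp shares 162 exonic bases of the same strand with its neighbour Irgm2, which differed by 0.32 (SE 0.20), and how reads in that stretch were counted is not given in the sources used here. Irgm1 changed by 0.50 (SE 0.17, adjusted p = 0.0195). That call ended without the library GF male 1, with an adjusted p-value of 0.0569. Ifi47 was called in females (0.68, SE 0.27, adjusted p = 0.0436), but 15 of 24 alternatives ended that call, edgeR (adjusted p = 0.0823) and DESeq2 (adjusted p = 0.0707) among them. It also ended without any 1 of 7 libraries, and without GF female 3 the value was 0.37 (adjusted p = 0.237). The 3 GBP members differed by −0.41 to 0.55 with no call. The lowest was Gbp7 (−0.41, SE 0.20, adjusted p = 0.0780), which was called lower without the library labelled CV male 3 (−0.57, adjusted p = 0.0112). Scaled to the reads outside the 7 loci, Gbp7 was also called lower over both sexes (−0.87) and in females (−1.06).

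Type I effectors and GTPases were then set side by side. Of the 30 type I effectors, 10 rose and 6 fell over both sexes, with a median of 0.13. Leaving out 1 library moved that median from 0.064 (without CV male 3) to 0.26 (without CV male 1). Of the 7 GTPases, 2 rose (28.6%) and none was called lower, with a median of 0.32, against a median of 0.07 over all genes. In both classes the share that rose was thus close to that of all genes. Without the library labelled CV male 3, 2 GTPases were higher and 1, Gbp7, was lower, with a median of 0.26. In males, where 14.1% of all genes rose and 15.4% fell, 3 type I effectors rose (Ifit3b, Bst2 and Ifi27), 4 fell (Stat2, Oas2, Parp14 and Rnf213), and no GTPase was called in limma, edgeR or DESeq2 (1, Igtp, at an unadjusted p under 0.05). The medians were 0.14 for type I effectors and 0.13 for GTPases. Without the library labelled CV male 3, 1 type I effector rose in males (Ifi27) and 3 fell (Stat2, Oas2 and Parp14), and the medians became 0.06 and −0.10. In females, where 29.8% of all genes rose and 26.0% fell, 12 type I effectors rose and 6 fell, with a median of 0.08, which ranged from 0.031 (without CV female 2) to 0.20 (without CV female 3). Of the GTPases in females, Igtp, Irgm1 and Ifi47 were called higher and none lower, with a median of 0.68. In edgeR and DESeq2, and without CV male 3, those calls were 2, Igtp and Irgm1, and with the 7 loci left out of the scaling there were 0 higher and 1 lower, Gbp7. Without GF female 3 the medians in females were 0.036 for type I effectors and 0.45 for GTPases. Leaving out at least 1 of the 12 libraries ended 4 of the 7 member calls in males (Bst2, Ifit3b, Parp14 and Rnf213) and 9 of the 21 in females (Dhx58, Ifi35, Ifi47, Ifit1, Ifit3, Irf7, Isg15, Mx2 and Usp18). Calls over all genes fell too, in males from 3474 to 1595 without GF male 1. In females they fell from 6572 to 5550 without CV female 3. No test of the classes against each other was made, because the members were chosen with results of these data known. The change was above 0 for 17 of the 30 type I effectors, 6 of the 7 GTPases and 6207 of the 11782 genes.

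**Figure D3:**
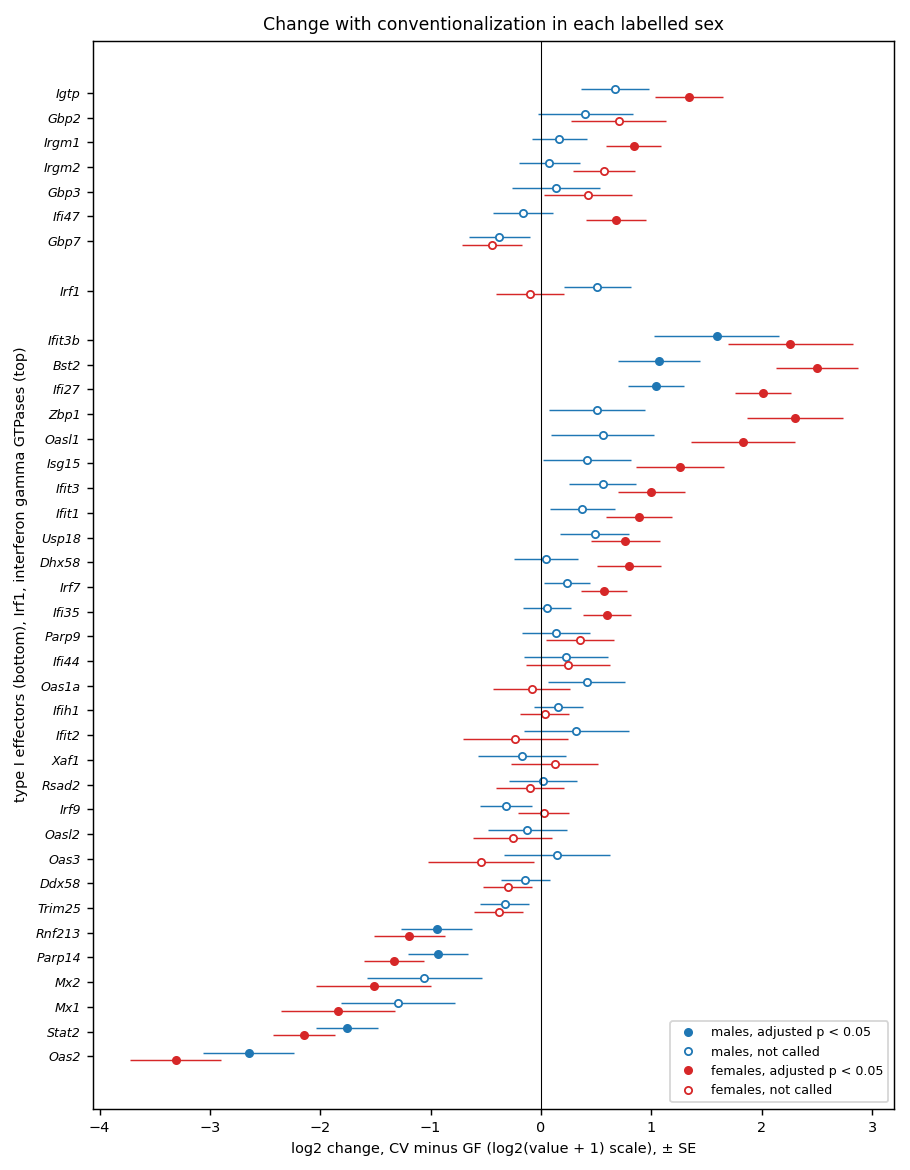
Change of each of the 38 members on the log2 scale (horizontal axis, CV minus GF, ± SE) in mice labelled male (blue) and female (red), with type I effectors at the bottom, Irf1 in the middle and interferon gamma GTPases at the top. Filled points passed an adjusted p-value of 0.05. In males 7 members passed and in females 21, the 7 among them. Of all 11782 genes tested, 3474 passed in males and 6572 in females.

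All 7 members called in males were also called in females, in the same direction. Of the 11782 genes, 3474 were called in males and 6572 in females. How many of all genes were called in both was not counted, so this overlap is not read as a trait of the members. More calls in females do not show that the sexes differ, and the difference itself was tested for each gene. None of the 38 members passed it in limma, and 0 of the 11782 genes did (0%), with 1382 at an unadjusted p under 0.05. The edgeR and DESeq2 tests also called no member. The library labelled CV male 3 counted as male in this test, and without any 1 library the member calls stayed at 0. For all genes the 0 was not firm. Without CV male 3, 4 genes were called, and without CV male 1, 282 were. Scaled to all reads 11 genes were called, and in DESeq2 23 were. At an unadjusted p under 0.05 in limma there were 4 members, each with the larger change in females: Zbp1 (difference 1.79, SE 0.62), Bst2 (1.43, SE 0.53), Ifi27 (0.98, SE 0.36) and Ifi47 (0.84, SE 0.39). After adjustment the smallest was 0.417. For Stat2 the female change minus the male change was −0.39, with a 95% interval from −1.22 to 0.45, and for Oas2 −0.66, from −1.90 to 0.58, so sizeable differences between the sexes remain possible.

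Transcript length ran alongside the direction of the members. The 12 members that rose had a longest annotated transcript of 756 bases (Isg15) to 3832 bases (Irgm1), with a median of 2011. The 6 that fell had 2476 bases (Mx2) to 16716 bases (Rnf213), with a median of 4179. The 20 not called had a median of 3538 bases. The same was seen over all genes, whose median change was 0.54 below 1000 bases, 0.76 from 1000 to 2000, 0.24 from 2000 to 4000, −0.36 from 4000 to 8000 and −0.94 above 8000 bases.

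When the trend with length and GC content was removed from each library, Stat2 (−1.80), Oas2 (−2.93), Mx1 (−1.61) and Mx2 (−1.62) were still called lower. Parp14 stood at −0.37 and was no longer called (adjusted p = 0.053), and Rnf213 turned to 0.36 and was called higher (adjusted p = 0.044). Ifih1 gained a call, higher over both sexes (0.52, adjusted p = 0.00776) and in females (0.59, adjusted p = 0.0312). Of the members that rose, Ifit3, Isg15, Usp18 and Irf7 lost their call, with changes of 0.36, 0.29, 0.12 and 0.32. Ifit3b, Bst2, Ifi27, Zbp1, Oasl1, Ifit1, Igtp and Irgm1 kept theirs.

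**Figure D4:**
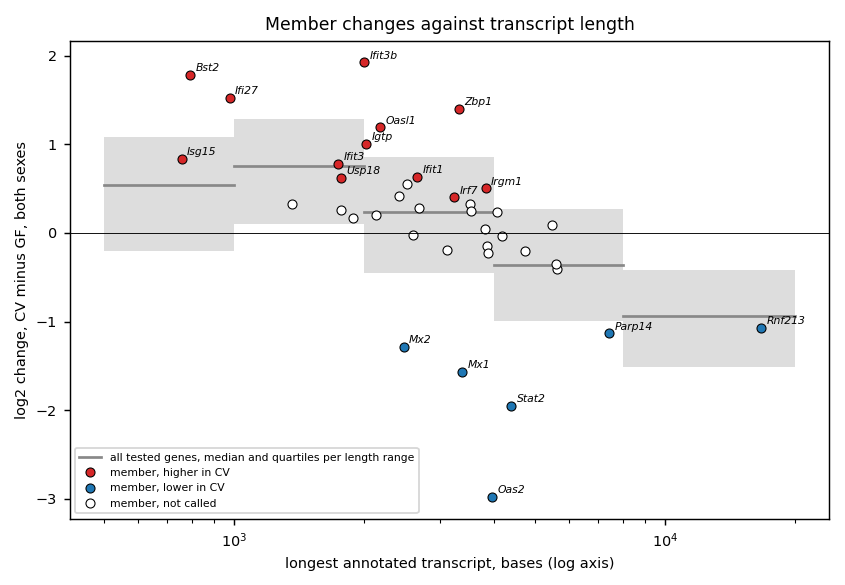
Change of the 38 members over both sexes (vertical axis, log2, CV minus GF) against the longest annotated transcript (horizontal log axis, bases), beside the median and quartiles of all tested genes in 5 ranges of length. Red members were higher in CV, blue lower and white not called. Rnf213 lay near the median of genes of its length, whereas Stat2, Oas2, Mx1 and Mx2 lay below the quartile range of genes of like length.

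Scaling moved counts more than it moved the largest changes. Scaled to all reads, 23 members were called higher and 4 lower, and the medians were 0.68 for type I effectors and 0.88 for GTPases. The median of all genes was then 0.62, close to that of the type I effectors. Of the 11782 genes, 7540 were called in either direction, against 7194 as deposited. With scaling to reads from elsewhere than the 7 loci, the calls were 5 higher (Ifit3b, Bst2, Ifi27, Igtp and Zbp1) and 10 lower, with medians of −0.32 and −0.14, against −0.38 for all genes. Here 7008 of the 11782 genes were called in either direction. How many of all genes were higher and how many lower was not counted for these scalings. The median of all genes moved the same way as the member counts, so those counts are not read as a trait of the members. Stat2, Oas2 and Mx1 were called lower, and Ifit3b, Bst2, Ifi27, Igtp and Zbp1 higher, under each of these scalings and with the length trend removed. With the share of mitochondrial ribosomal RNA as a covariate in limma, 0 members and 0 of the 11782 genes were called over both sexes, with 8 members and 1985 genes at an unadjusted p under 0.05. That share ran from 9.36 to 16.4% in GF and from 1.39 to 6.32% in CV, so that the covariate and the condition largely carry the same information and cannot be told apart.

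**Figure D5:**
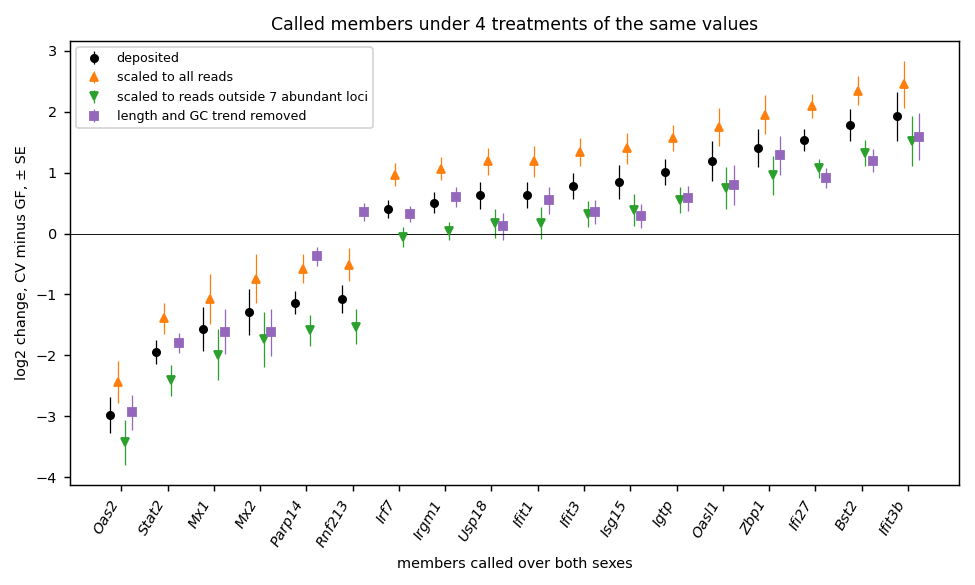
Change of the 18 members called over both sexes (vertical axis, log2, CV minus GF, ± SE) as deposited, scaled to all reads, scaled to the reads outside 7 abundant loci, and with the trend of length and GC content removed. Rnf213 changed sign, from −1.07 to 0.36, when the trend was removed, and Irf7 moved to −0.06 when the libraries were scaled to the reads outside the abundant loci.

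The rest of the pathway was read from a list of its parts. Its counts stand beside the shares of all genes, 32.3% higher and 28.7% lower over both sexes. In males those shares were 14.1% and 15.4%, and in females 29.8% and 26.0%. No interferon gene could be tested: of 21 ligand genes in the table, 16 had no read in any library, which allows up to 3 reads by counting error alone. The others were Ifnk with 22 reads in all 12 libraries together, Ifng with 18, Ifnb1 with 3, and Ifna1 and Ifna4 with 1 each. The summed ligand value was 1.33 to 11.6 in GF and 0 to 2.39 in CV, too few reads for a comparison. Of the 5 receptor genes tested, 3 rose over both sexes and in each sex. They were Ifnar2 (1.38, SE 0.16), Ifngr1 (0.76, SE 0.16) and Ifngr2 (1.56, SE 0.23). Ifnar1, the other chain of the type I receptor, differed by −0.23 (SE 0.18), so that the chains of that receptor had different values.

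Below the receptors, the kinases Jak1 (−0.37, SE 0.15) and Tyk2 (−0.76, SE 0.20) fell, and no call was made for the kinase Jak2 (0.065, SE 0.22) or the transcription factor Stat3 (0.33, SE 0.18). Of 8 inhibitors tested, Ptpn2 (−0.90, SE 0.18), a phosphatase, and Pias1 (−0.74, SE 0.19) fell and none rose. The share that fell, 25%, was near the 28.7% of all genes. Of 16 genes that sense nucleic acids or microbes and lead to interferon, the adaptors Myd88 (0.65, SE 0.19) and Mavs (0.63, SE 0.22) rose. In the same list the kinases Ikbke (−1.16, SE 0.24) and Tbk1 (−0.65, SE 0.18) and the DNA sensor Aim2 (−1.65, SE 0.48) fell. These calls were 12.5% higher and 18.75% lower, both below the shares of all genes.

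A further list of 43 tested interferon-stimulated genes outside the 38 also split, with 9 higher, 17 lower and a median of −0.31. These calls were 20.9% higher and 39.5% lower, against 32.3% and 28.7% of all genes. Ifitm2 (2.03, SE 0.25), Ifitm3 (1.69, SE 0.29), Lgals3bp (1.61, SE 0.19) and Lap3 (1.33, SE 0.24) were the higher genes with the smallest adjusted p-values. Ifi203 (−2.27, SE 0.27), Sp100 (−1.44, SE 0.24), Oas1b (−1.71, SE 0.31) and Samhd1 (−1.01, SE 0.19) were the lower ones. Oas1b thus fell as Oas2 did, while Oas1a, its close relative, was not called. Genes of the pathway lists are given as deposited only, without other scalings and without removal of the length trend. Among those that fell, the exons of Jak1, Tyk2, Ikbke and Samhd1 sum to 7227, 6865, 9018 and 9150 bases. Ptpn2 and Oas1b also fell, with 3125 and 1992 bases. Ifitm2 and Ifitm3, which rose, have 655 and 678 bases. The part of length or scaling in these changes was not tested.

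Markers of several cell types moved with the condition beside these genes. Their counts are over both sexes, where 32.3% of all genes were higher and 28.7% lower. The 8 T and NK cell markers tested all fell, and the summed value of the list was 257 to 343 in GF and 73.2 to 126 in CV, without overlap. B and plasma cell markers summed to 116 to 332 in GF and 76.3 to 129.7 in CV, with 3 of 5 lower. Kupffer cell and macrophage markers summed to 1239 to 2334 in GF and 1670 to 3961 in CV, with 6 of 10 higher. Hepatocyte markers had 5 of 8 higher, and sinusoidal endothelial markers 1 higher and 1 lower of 8. Red blood cell markers summed to 2777 to 32885 in GF and 916 to 3159 in CV, with 4 of 5 lower. Markers of plasmacytoid dendritic cells, known for making type I interferon, summed to 10.6 to 44.1 in GF and 5.37 to 19.99 in CV, and those of neutrophils to 1.33 to 23.9 and 1.04 to 22.3, with none of either list high enough to be tested and none at 0 in all libraries. The part of these cell types in the changes of Stat2, Oas2, the Mx genes or the members that rose was not tested.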

How the data were processed

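RNA was isolated from snap-frozen liver, and poly(A)-selected stranded libraries were made from it. Per the labels, HTSeq 0.6.1p1, DESeq2 and build GRCm38 were used upstream. The aligner, the annotation and the strand setting are not given in the sources used here. The deposited signal per gene is a read count that the authors divided by 1 size factor for each library. Divided by the step that 1 read makes, 100% of the values came out whole within 0.01, so the reads could be recovered. The paper supplied with the series describes another experiment, and no method was taken from it.

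Symbols were read from the table, which named 23337 of 41128 genes, and gene coordinates and transcript lengths from GENCODE mouse release 21. The main test was limma 3.58.1 (R 4.3.3) on log2(value + 1) with a variance trend, for genes with a mean value of at least 10. All 12 libraries entered 1 fit with 4 group means, and p-values were adjusted by the Benjamini-Hochberg method with a threshold of 0.05. Alternatives were other scalings, pseudocounts and minimum values, edgeR 4.0.16 and DESeq2 1.42.0 on the recovered reads, removal of a loess trend (span 0.5) on length and GC content, a covariate, the replicate number as a block and each library left out. The 7 abundant loci are both mitochondrial ribosomal RNA genes, Lars2, Mir6236 and 3 predicted genes with at least 0.5% of the reads in any library.

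The members and all gene lists were chosen with earlier results of these data known. Values for each library are given for up to 12 called members with the smallest adjusted p-values, for Irf1 and for the 3 members highest per length. Pathway genes were named by adjusted p-value, up to 4 in each direction. Mx2 and the members beside which a call was lost were described after their values had been seen. A gene of the pathway lists is not reported here.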

Additional observations from a re-analysis of the deposited data

Results flagged for a closer look

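The 38 members were examined in the 6 GF and in the 6 CV libraries, 76 groups of values in all, for a lowest or highest library that stood apart by a gap of more than 0.625 of the range. Chance gives this in about 1 of 20 groups, and 5 values were found. Among the CV libraries, CV male 1 was lowest for Oas1a, with 24.5 against 39.8 to 47.9 in the others, and for Oas2, with 7.81 against 19.3 to 25.4. Among the GF libraries, GF female 1 was lowest for Oasl1, with 9.06 against 34.6 to 59.5. GF male 2 was lowest for Gbp3, with 31.9 against 65.2 to 93.1, and highest for Ifih1, with 252.85 against 169 to 189.8. The calls of Oas2 and Oasl1 over both sexes held when these libraries were left out.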

How the results depend on the processing

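Over both sexes, 15 of the 18 member calls held without each of the 12 libraries. The exceptions were Irf7, Irgm1 and Usp18. Of 24 alternatives (23 for Mx1 and Ifit3b), at most 1, the mitochondrial ribosomal RNA covariate, ended the calls of Bst2, Ifi27, Ifit3b, Igtp, Mx1, Oas2, Stat2 and Zbp1. Why other calls moved was not tested.

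Scaled to all reads, 23 members were higher over both sexes. In males 5 were higher and 2 lower, and in females 22 were higher and 2 lower. Of all 11782 genes, 3611 were called in males and 6951 in females, in either direction. The medians of type I effectors were then 0.68 over both sexes, 0.44 in males and 0.88 in females, and those of the GTPases 0.88, 0.44 and 1.48, against 0.62, 0.37 and 0.86 for all genes. Scaled to the reads outside the abundant loci, 5 were higher and 10 lower over both sexes, 1 was higher in males, and 5 were higher and 10 lower in females. Of all genes, 3119 were then called in males and 6504 in females, again without a split by direction. The medians of type I effectors became −0.32, −0.15 and −0.54, and those of the GTPases −0.14, −0.16 and 0.065, against −0.38, −0.23 and −0.53 for all genes. Irf7 turned to −0.056 over both sexes and −0.047 in females, and Ifi35 to −0.018 in females.

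With the mitochondrial ribosomal RNA covariate 0 members were called in either direction over both sexes, in males or in females. The medians were 0.78 for GTPases over both sexes, and 0.49 for type I effectors and 1.23 for GTPases in females. Oasl1 turned to −0.80 over both sexes and −0.97 in females, Dhx58 to −1.36 and Rnf213 to 0.29 in females. With the length and GC trend removed, 1 member was higher and 2 lower in males and 9 higher in females, and the median of GTPases in females was 0.38. Of 11731 genes, 2959 were then called in males and 5917 in females. Rnf213 turned to 0.36 over both sexes, 0.14 in males and 0.57 in females, and Ifi35 to −0.21 in females. Without a minimum mean value, 1 member was higher in males.

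Without 1 library each, the members higher in males ranged from 1 to 3, with 1 without GF male 1, CV male 1, CV male 3 or any 1 CV female library. Those lower in males ranged from 2 to 5, with 2 without GF male 1, GF male 3 or CV male 1. Those higher in females ranged from 7 (without CV female 2) to 15, with 9 without CV female 1. Over both sexes the counts ranged from 10 to 13 higher and 6 to 7 lower. Calls of all genes in either direction ranged from 1595 to 3877 in males, 5550 to 7002 in females and 6640 to 7429 over both sexes. The median of type I effectors in males ranged from −0.019 (without GF male 1) to 0.20, and that of GTPases in males from −0.10 (without CV male 3) to 0.21. For type I effectors the median ranged from 0.064 to 0.26 over both sexes and from 0.031 to 0.20 in females, and for GTPases from 0.24 to 0.47 and from 0.45 to 0.75.

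Samples with the same replicate number did not deviate together (correlations from −0.23 to 0.02). Deviations from a mean of 3 libraries depend on each other, so this cannot decide whether the numbers pair the mice. With the replicate block, 11 members were higher and 6 lower over both sexes, 2 and 3 in males, and 11 and 6 in females. Of all 11782 genes, 6827 were then called over both sexes, 2603 in males and 6113 in females, in either direction. With 1 mismatch allowed, 27 of 29 promoters held an ISRE, and so did 38.9% of all genes.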
